A study of Homo sapiens with 6 samples.

Results

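miR-26a-5p, miR-26b-5p and miR-101-3p are mature microRNAs that are widely described as tumour suppressors of the liver. They were followed here in Huh7, an established line of human hepatocellular carcinoma cells. Their probes were taken by mature accession (MIMAT0000082, MIMAT0000083 and MIMAT0000099), which picked 3 of the 1212 probes in the value table, 1 for each microRNA. The study compared 3 Huh7 samples kept without metformin (control) with 3 samples kept in 10 mM metformin, a biguanide drug for diabetes, for 72 h. All samples were of the same line, grown in the same medium, and each was read on 1 single-colour array. No label states that the 3 samples of a group are separate cultures. The p-values below therefore measure the spread between these samples alone, and that spread may be technical.

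A microRNA is cut from a hairpin RNA and guides an Argonaute protein to messenger RNAs that pair with its seed, the bases near its 5′ end. The mRNA is then translated less or degraded. In the liver, miR-26a is known to repress cyclins of the G1 phase, and miR-26a, miR-26b and miR-101 are all known to repress EZH2, the methyltransferase of the Polycomb repressive complex. miR-101 is also known to repress MCL1, an inhibitor of apoptosis. All 3 are commonly reported to be lower in hepatocellular carcinoma than in the liver around it.

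The mature sequences, from RefSeq on GRCh38.p14, show which members could act on the same targets. Capitals mark the seed, bases 2 to 8 counted from the 5′ end.
miR-26a-5p: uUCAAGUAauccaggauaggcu
miR-26b-5p: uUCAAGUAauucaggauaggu
miR-101-3p: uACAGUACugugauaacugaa
The miR-26 members had the same seed, which pairs with UACUUGA in a target, whereas the seed of miR-101-3p pairs with GUACUGU. Over the 21 positions compared without gaps from the 5′ end, miR-26a-5p and miR-26b-5p were the same at 19 and differed by C11U and C21U (the base of miR-26a-5p, its position from the 5′ end, then the base of miR-26b-5p). miR-101-3p matched miR-26a-5p at only 6 of 21 positions and miR-26b-5p at 7. Among 2370 mature human names in the RefSeq table, the seed of miR-26 occurred in 4 (0.169%), the others being miR-1297 and miR-4465. The full seed of miR-101-3p occurred in 1 name (0.0422%), its own. miR-144-3p had the same bases 2 to 7 but U in place of C at base 8. The sequences of the array's probes were not used here, so how far the probes tell miR-26a-5p from miR-26b-5p was not tested.

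The hairpins show that 1 probe can read the output of more than 1 gene. Capitals mark the stretch that matches the mature sequence measured by the array.
MIR26A1: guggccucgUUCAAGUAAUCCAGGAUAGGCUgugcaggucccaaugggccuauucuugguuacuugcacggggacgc
MIR26A2: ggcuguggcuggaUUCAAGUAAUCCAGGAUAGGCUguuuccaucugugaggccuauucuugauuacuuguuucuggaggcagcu
MIR26B: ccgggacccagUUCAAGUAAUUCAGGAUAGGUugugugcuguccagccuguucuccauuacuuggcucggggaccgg
MIR101-1: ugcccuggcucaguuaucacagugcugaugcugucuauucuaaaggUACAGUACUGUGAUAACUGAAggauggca
MIR101-2: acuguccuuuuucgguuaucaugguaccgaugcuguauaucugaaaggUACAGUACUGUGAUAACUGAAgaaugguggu
MIR26A1 (GRCh38.p14, chr3:37969404-37969480, plus strand) lay within the bounds of CTDSPL, and MIR26A2 (chr12:57824609-57824692, minus strand) within CTDSP2. MIR26B (chr2:218402646-218402722, plus strand) lay within CTDSP1. All of these enclosing genes encode small phosphatases of the RNA polymerase II tail, which are also known to act on the retinoblastoma protein. MIR101-1 (chr1:65058434-65058508, minus strand) lay within the bounds of the annotated JAK1 gene, and MIR101-2 (chr9:4850297-4850375, plus strand) within RCL1. The sequence of mature miR-26a-5p was found in both MIR26A hairpins and that of miR-101-3p in both MIR101 hairpins. The RefSeq table lists mature miR-101-3p at MIR101-2 but not at MIR101-1, where the capitals mark a sequence match alone. The probe value of either microRNA cannot be split between its loci, and which loci were expressed was not tested.

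The deposited values are linear intensities already processed by the authors. The arrays held between 1099 and 1209 probes with a value and had medians between 22.8 and 24.1. Metformin replicate 2 had the fewest values, with 113 null values against 3 to 36 on the other arrays. All 3 members had a value on every array and were among the 1038 probes tested. The table has no background call, and the brightness of a probe depends on more than the abundance of its target, so neither a probe's brightness nor a ratio of probes is read here as the relative abundance of the microRNAs. The number of arrays limits the precision.

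None of the 3 microRNAs passed the test for a difference with metformin. In limma's fit over all tested probes, 0 of the 3 had an adjusted p under 0.05 after Benjamini-Hochberg adjustment, where 0% of the 1038 probes did, and 0 of the 3 had an unadjusted p under 0.05, against 2.70% of all probes. For each member the control and metformin values overlapped, whereas 7.61% of all tested probes had values that did not overlap between the groups (4.43% with all metformin values above and 3.18% with all below the control values). The estimated differences were 0.36, 0.08 and 0.12 on the log2 scale for miR-26a-5p, miR-26b-5p and miR-101-3p, with a median of 0.03 over all tested probes. Over the 260 probes with the highest mean intensity, which include both miR-26 members, that median was 0.10. Of these probes, 186 (71.5%) had a higher mean with metformin, against 52.9% of all tested probes.

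miR-26a-5p, the repressor of cyclins of the G1 phase, had intensities of 605.2, 499 and 779.4 on control replicates 1, 2 and 3. On metformin replicates 1, 2 and 3 they were 622.4, 927.5 and 870.8. The 2 highest values were on metformin arrays and the 2 lowest on control arrays, but control replicate 3 lay above metformin replicate 1, so the groups overlapped. The means were 628 ± 142 in control and 807 ± 162 with metformin (SD, n = 3). The log2 difference was 0.36 (SE 0.28), or 1.29-fold, with a 95% interval from 0.83-fold to 2.004-fold. The limma adjusted p was 0.991 and the two-sided exact permutation p was 0.2, where 3 arrays against 3 cannot go below 0.1. The interval includes no change, so the data do not show a rise. Its upper bound only just reaches 2-fold, which is 1 on the log2 scale. That bound varied with the settings of the model, from 0.72 after quantile normalization to 1.24 without control replicate 3. Whether a 2-fold rise lies outside the interval therefore depends on the setting.

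miR-26b-5p, which carries the same seed, had intensities of 174.3, 185.7 and 266.1 on the control arrays in the same order. With metformin they were 173.4, 250.8 and 231.6. The highest value was on a control array and the lowest on a metformin array, and the range of the metformin values lay almost wholly within that of the control values. The means were 209 ± 50.04 in control and 219 ± 40.3 with metformin (SD, n = 3). The log2 difference was 0.08 (SE 0.27), with a 95% interval from 0.68-fold to 1.63-fold, a limma adjusted p of 0.991 and a two-sided exact permutation p of 1. A 2-fold change of this probe's intensity in either direction lies outside that interval.

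miR-101-3p, the repressor of EZH2 and MCL1, gave a dim signal. Its intensities were 22.9, 12.2 and 20.3 on the control arrays and 14.5, 19.1 and 26.2 with metformin. The lowest value was on control replicate 2 and the highest on metformin replicate 3, and the other values were mixed between the groups. It lay below the median of all probes on 5 of the 6 arrays and brighter than between 9.72% and 59.0% of the probes of an array, at 2.14 to 5.57 times the lowest value there. Without a background call, the table does not show whether this signal was above background. The means were 18.5 ± 5.58 in control and 19.9 ± 5.89 with metformin (SD, n = 3). The log2 difference was 0.12 (SE 0.34), with a 95% interval from 0.63-fold to 1.86-fold, a limma adjusted p of 0.991 and a two-sided exact permutation p of 0.8.

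**Figure D1:**
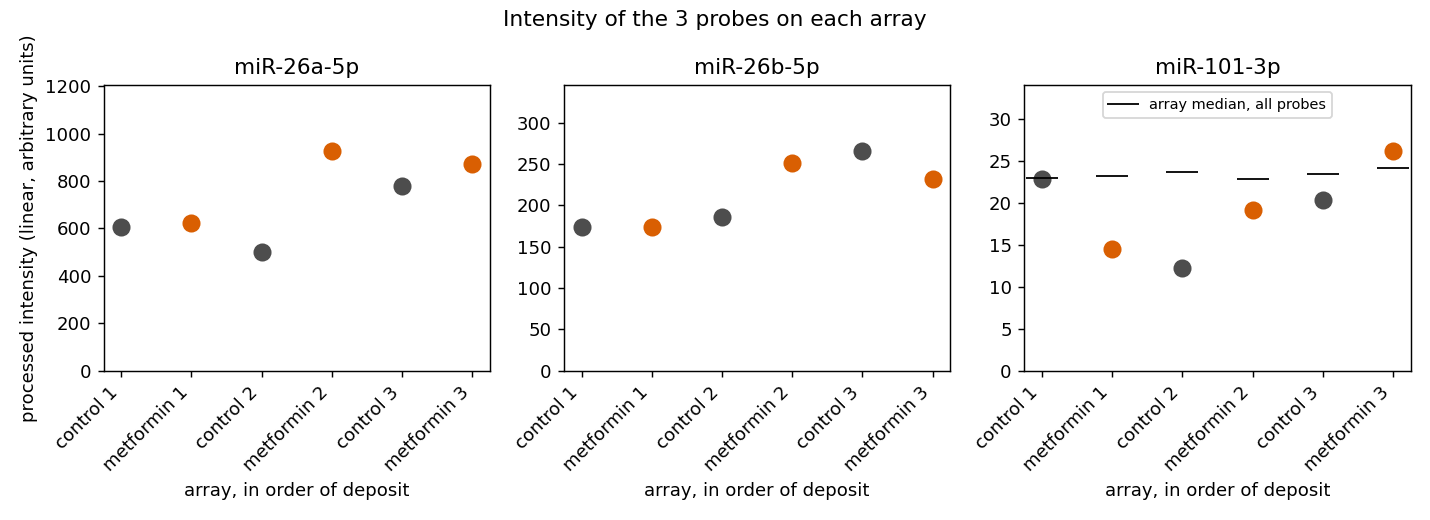
Processed intensity (linear axis from 0, arbitrary units) of each probe on the 6 arrays in order of deposit, with control in grey and metformin in orange; black dashes in the miR-101-3p panel are the medians of all probes on each array. Control and metformin points overlap in every panel, and the miR-26a-5p points run from 499 to 927.5.

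The miR-26 probes were brighter than most, since 97.3% (miR-26a-5p) and 93.8% (miR-26b-5p) of the tested probes had a lower mean, against 28.5% for miR-101-3p. Their values nevertheless spread more between arrays of 1 group than was typical at high intensity. The within-group SD on the log2 scale was 0.32 for miR-26a-5p and 0.31 for miR-26b-5p, where the median over the 260 brightest probes was 0.24. For miR-101-3p it was 0.46, against a median of 0.38 over all tested probes, most of which were brighter. No median was taken over probes as dim as miR-101-3p, so whether its spread was typical of them is not shown.

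**Figure D2:**
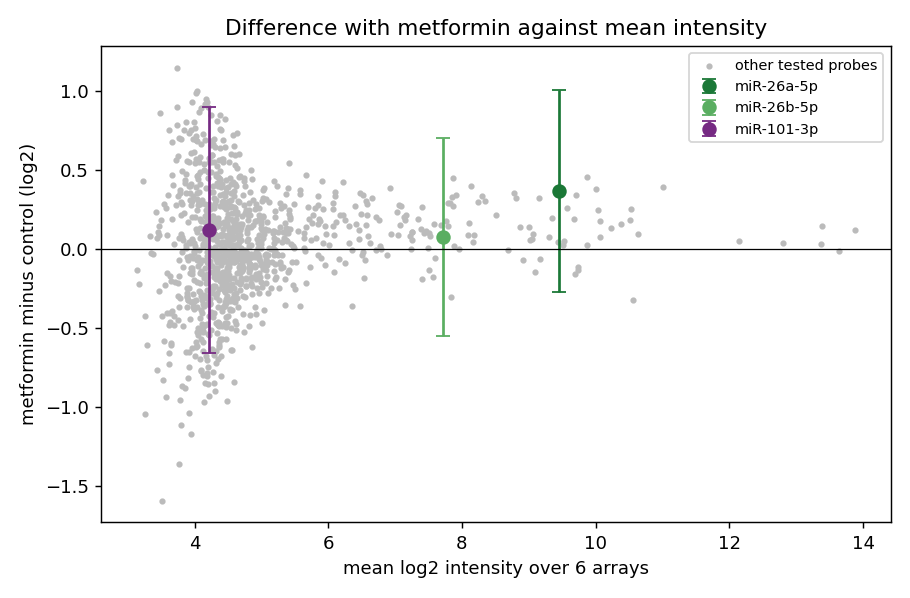
Difference between metformin and control (log2) against the mean log2 intensity over 6 arrays for the 1038 tested probes in grey, with the 3 members in colour and their 95% intervals from limma as bars. The intervals of all 3 members include 0, and miR-101-3p lies in the dim range where differences of other probes scatter most.

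The miR-26 values moved with the order of the arrays in the deposit, as those of many bright probes did. miR-26a-5p lay between 499 and 622.4 on the first 3 arrays deposited (control replicates 1 and 2, metformin replicate 1) and between 779.4 and 927.5 on the last 3 (metformin replicates 2 and 3, control replicate 3). miR-26b-5p lay between 173.4 and 185.7 on the first 3 and between 231.6 and 266.1 on the last 3. Both probes were thus higher on every one of the later arrays, whichever the treatment. This was common among bright probes, since 30% of the 260 brightest and 12.8% of all 1038 tested probes had every value of the last 3 arrays above every value of the first 3. miR-101-3p overlapped between the sets, with 12.2 to 22.9 on the first and 19.1 to 26.2 on the last. The labels name no batch, and 2 of the last 3 arrays are metformin arrays, so deposit order and treatment were not balanced. With the order as a block, an alternative to the model, the log2 difference of miR-26a-5p was 0.19 (95% interval -0.34 to 0.72), that of miR-26b-5p was -0.10 and that of miR-101-3p was -0.03. Within the first 3 arrays alone the metformin array differed from the mean of its controls by 0.18 for miR-26a-5p, by -0.05 for miR-26b-5p and by -0.21 for miR-101-3p. Within the last 3 the differences were 0.21, -0.14 and 0.14, in the same order of microRNAs. These values have 1 array in a group and no test.

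The common level of the bright probes also differed between arrays. Taken as the median deviation of the 260 brightest probes from their means, it ran from -0.19 on control replicate 2 to 0.19 on metformin replicate 2 on the log2 scale. The control arrays averaged -0.04 ± 0.14 and the metformin arrays 0.05 ± 0.13 (SD, n = 3). Control replicate 2 and metformin replicate 2 are also the arrays on which miR-26a-5p was lowest and highest, respectively. With each array centred on that level, a setting chosen after seeing the data, the difference of miR-26a-5p was 0.27 (95% interval -0.26 to 0.79), that of miR-26b-5p -0.02 and that of miR-101-3p 0.02. The part of the array level and of deposit order in the values of miR-26 was not tested beyond these fits.

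Ratios of 2 probes on the same array do not depend on a factor common to the whole array, so they show whether the members' signals moved unequally between arrays. The size of a ratio on its own has no meaning for abundance. The log2 ratio of miR-26a-5p to miR-26b-5p was 1.80, 1.43 and 1.55 on control replicates 1, 2 and 3, and 1.84, 1.89 and 1.91 on the metformin replicates. All 3 metformin ratios lay above all 3 control ratios, although control replicate 1 was only just below metformin replicate 1. The ratio averaged 1.59 ± 0.19 in control and 1.88 ± 0.03 with metformin (SD, n = 3), and the means differed by 0.29. Among the 33670 pairs that can be formed from the 260 brightest probes, 7.48% had ratios that did not overlap between the groups. A larger absolute difference than that of this pair was found in 25.5%, so a difference of this size was not rare among bright probes. The share of pairs with both features was not computed. The ratios are a description of the members, with no p.

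The ratios with miR-101-3p include a probe whose signal is not shown to be above background. What their overlap between the groups says about how the members moved relative to each other was not tested. The log2 ratio of miR-26a-5p to miR-101-3p averaged 5.11 ± 0.34 on the control arrays and 5.36 ± 0.28 on the metformin arrays (SD, n = 3). That of miR-26b-5p to miR-101-3p averaged 3.52 ± 0.53 and 3.48 ± 0.30, respectively (SD, n = 3). In both cases control replicate 1, where miR-101-3p was at its highest among the controls, had the lowest ratio of the 6 arrays.

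**Figure D3:**
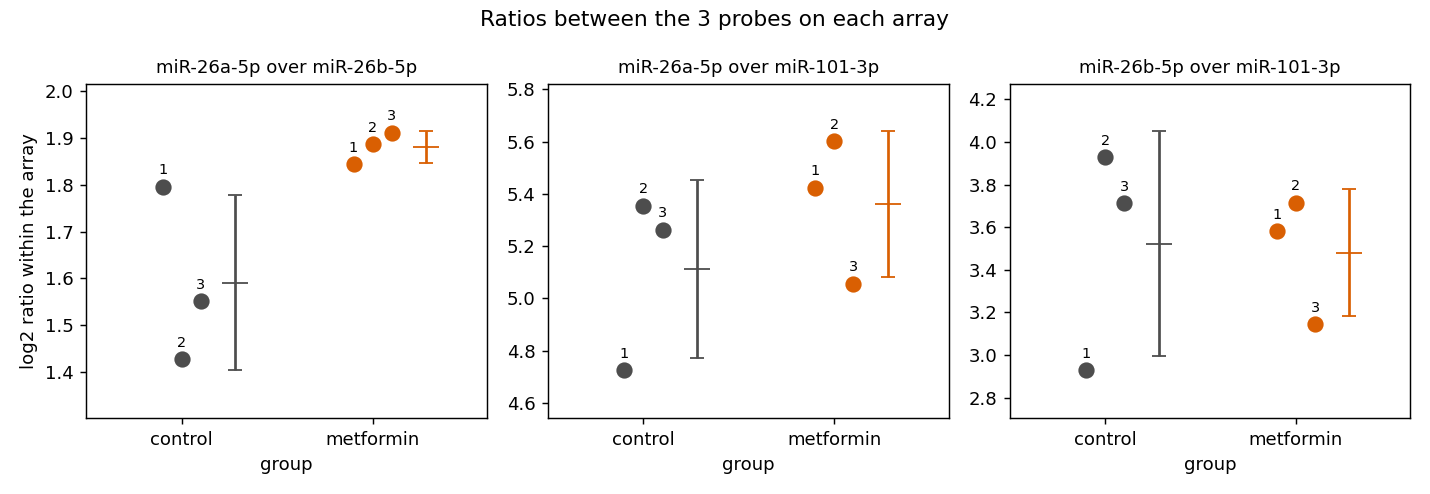
Log2 ratio of 2 probes on the same array for the 3 pairs of members; points are arrays with their replicate number, and the bar beside each group is its mean ± SD (n = 3). Metformin and control points separate only for miR-26a-5p over miR-26b-5p, by 0.29 between the means.

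The likeness of the members' patterns over the 6 arrays is a description of arrays that share their overall level. Log2 values of miR-26a-5p and miR-26b-5p had a Pearson r of 0.82 and a Spearman rho of 0.60. The r fell to 0.57 once each array was centred on the level of its bright probes. By r before centring, miR-26b-5p was number 57 among the other 259 bright probes in its likeness to miR-26a-5p. Many bright probes thus had a higher r with miR-26a-5p over these 6 arrays than its near-identical relative did. That rank includes the shared level of the arrays, and no rank was taken after centring. miR-101-3p had an r of 0.68 with miR-26a-5p and of 0.44 with miR-26b-5p, and these were 0.49 and 0.09 after centring. No other probe could be named for its likeness, because the tables used here do not pair accessions with microRNA names beyond the 3 members. For the same reason the other arms of these hairpins, miR-1297, miR-4465, the microRNA lists on EZH2, liver cancer suppression and liver cancer promotion, and the marker microRNAs of hepatocytes and other cell types have no value here, and the identity of Huh7 was not checked against markers.

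**Figure D4:**
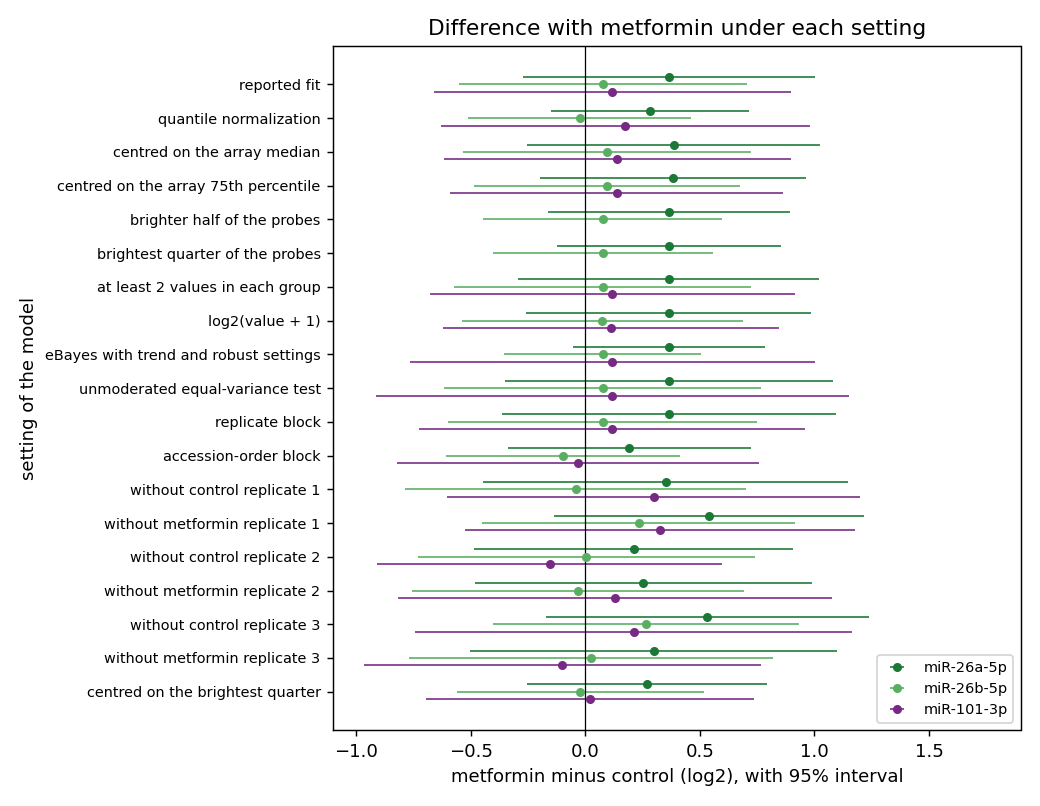
Difference between metformin and control (log2) for each member, with its 95% interval from limma or the unmoderated test, in the reported fit and in each alternative named on the vertical axis; miR-101-3p has no point where only the brighter probes were kept. Every interval includes 0, the points of miR-26a-5p stay between 0.19 and 0.54, and those of miR-26b-5p and miR-101-3p fall on both sides of 0.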

How the data were processed

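Total RNA of 6 Huh7 samples was labelled with Hy5 by a kit for LNA microRNA arrays, per the labels' protocols. The authors deposited 1 table of processed linear intensity values. Scanning, background correction and scaling are not stated in the labels. Of 1212 probes, 174 had a null value on some array and were left out. Intensities were converted to log2 without a pseudocount, and metformin was compared with control over 1038 probes with limma 3.58.1 in R 4.3.3 (lmFit, eBayes, two-sided, Benjamini-Hochberg over all probes, threshold 0.05). The procedure was first tested on simulated data with independent noise. Those data had no shared array level and no shift with deposit order, so the test does not cover either. Plots used matplotlib 3.10.9.

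The members and the microRNA lists were chosen with earlier results of these data known. The naming rule took the 3 members, related arms and seeds, 3 microRNAs of each list and 3 of each member's most similar probes. Only the members could be paired with a probe, so no list was counted. Sequences come from RefSeq (GRCh38.p14), matched by name for 3 of 3 members. Alternatives covered scaling, filters, moderation, blocks and leaving out each array.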

Additional observations from a re-analysis of the deposited data

How the results depend on the processing

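No setting called a member or any other probe. Over the alternatives run, the limma or unmoderated adjusted p of the members ranged from 0.883 to 0.9999. The difference of miR-26a-5p stayed above 0 in all 18 alternatives, between 0.19 (deposit-order block) and 0.54 (without metformin replicate 1). Single arrays moved it, to 0.53 without control replicate 3, to 0.25 without metformin replicate 2 and to 0.21 without control replicate 2. The sign of miR-26b-5p turned to -0.025 after quantile normalization, to -0.098 with the deposit-order block and to -0.022 with arrays centred on their bright probes. It ranged from -0.042 (without control replicate 1) to 0.26 (without control replicate 3) when 1 array was left out, and was -0.033 without metformin replicate 2. miR-101-3p was too dim for the 2 fits of the brighter probes. In the other fits its sign turned to -0.032 with the deposit-order block. Leaving out 1 array gave between -0.16 (without control replicate 2) and 0.33 (without metformin replicate 1), with -0.10 without metformin replicate 3. The cause of these turns was not tested. The difference in the ratio of miR-26a-5p to miR-26b-5p lay between 0.21 and 0.39 in its 8 alternatives. That of miR-26a-5p to miR-101-3p, 0.25, lay between 0.05 (without control replicate 1) and 0.40 (without metformin replicate 3). That of miR-26b-5p to miR-101-3p turned sign, from -0.34 to 0.16, when 1 array was left out. No label ties samples of the same replicate number together, and deviations of same-numbered samples correlated with r of 0.01, -0.27 and -0.02 over all probes, and of 0.24, -0.26 and 0.44 over the 260 brightest, which include miR-26. With the replicate block the difference of miR-26a-5p was again 0.36, with a 95% interval of -0.36 to 1.09, and 0 probes were called.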
